A study of Rattus norvegicus with 4 samples.

Results

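Clock output transcription factors carry the rhythm of the circadian clock to other genes, and 7 of them were examined in rat skeletal muscle: Dbp, Tef, Hlf, Nfil3, Ciart, Bhlhe40 and Bhlhe41. They were taken by name, out of 26624 genes or unnamed accessions on the arrays. Probes were assigned through the RefSeq accession that the array gives for each probe. This gave 7 probes for 5 of the members: 3 for Dbp and 1 each for Tef, Nfil3, Ciart and Bhlhe40. No probe used here matched Hlf or Bhlhe41, which were not analysed.

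The samples were 4 single-colour Agilent arrays of skeletal muscle RNA from male rats aged 15 weeks. The wild type (WT) was the Wistar strain with 2 arrays. The SPORTS rat, a hyperactive mutant on the Wistar background, gave 1 array from an exercised and 1 array from a sedentary animal. The design text calls the WT rats sedentary, while the source names give no exercise state for them. Which muscle was taken, how the rat was exercised and at what hour the tissue was sampled are not given in the labels. It is also not stated that the WT arrays are from separate animals, so the spread between them could be purely technical. The p-values of a single SPORTS array against WT rest on that spread. Those of both SPORTS arrays against both WT arrays also take in the gap between the exercised and the sedentary array.

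The circadian clock of a cell is a feedback loop in which BMAL1 paired with CLOCK or NPAS2 drives genes through E-box sequences, among them those of its own repressors. The output factors lie downstream of this loop. The proline and acidic amino acid rich (PAR) bZIP proteins DBP, TEF and HLF activate genes at D-box sequences, and NFIL3 (also called E4BP4) represses at the same sequences, so the abundance of DBP and NFIL3 usually peaks at opposite phases. CIART (also called CHRONO) represses the BMAL1 complex, and BHLHE40 and BHLHE41 (DEC1 and DEC2) are bHLH repressors that bind E-boxes. In skeletal muscle, as in other tissues, these factors link the clock to metabolic genes.

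The start regions of the members were searched for these elements because they connect the members with the core loop and with each other. RefSeq promoter windows of the GRCr8 build, from 250 bases before to 50 bases after the start, were at hand for 6 of the 7 members. The E-box letters CACGTG, which read the same on both strands, were in 4 of the 6 windows, those of Tef, Ciart, Bhlhe40 and Bhlhe41, and in 6.42% of 33469 such windows of all genes. Ciart held 3, and 19 windows in all held 3 or more. Those of Ciart began 93, 35 and 21 bases before the start. The E-box of Tef began 198 bases and that of Bhlhe40 220 bases before the start. The following stretches of the measured members are shown with the E-box in capitals, 5′ to 3′ on the gene's strand, for Ciart at chr2:186112242-186112359 (minus strand), for Tef at chr7:115206609-115206654 (plus strand) and for Bhlhe40 at chr4:143174210-143174255 (plus strand).
Ciart: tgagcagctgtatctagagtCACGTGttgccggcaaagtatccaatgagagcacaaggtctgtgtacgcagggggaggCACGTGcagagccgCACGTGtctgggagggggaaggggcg
Tef: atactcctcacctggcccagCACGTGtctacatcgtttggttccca
Bhlhe40: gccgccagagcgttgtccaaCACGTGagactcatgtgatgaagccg

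No D-box (TTATGTAA or TTACGTAA, both strands) and no core of the ROR element (TAGGTCA, both strands) was found in the 6 windows. These letters were in 1.01% and 2.63% of all windows. A match describes the letters in this window and is no evidence of binding, and the windows of Dbp and Nfil3 held none of the letters searched.

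The scanner software flagged 46.0% to 50.3% of the probes on an array as well above background. The SPORTS arrays lay further apart than the WT arrays: 21.9% of the 13326 genes tested differed 2-fold or more between the exercised and the sedentary SPORTS array, against 1.13% between the WT arrays. The 5 of 8 skeletal muscle markers tested were all well above background on the 4 arrays, and none of 5 liver markers could be tested. The summed signal of 9 of 10 fast fibre markers, in units of each array's 75th percentile signal, came to 1108 and 1125 in WT muscle, 282 in sedentary SPORTS muscle and 2965 in exercised SPORTS muscle. For all 10 slow fibre markers it was 2091 and 2037, 1964 and 447. The 6 of 7 macrophage and monocyte markers tested summed to 32.3 and 20.9, 45.6 and 9.10, and 8 fibroblast and tendon markers to 248 and 235, 166 and 57.3. This last list was split on the sedentary array. The log2 difference from WT there was -1.41 for Col1a1, -1.71 for Fmod, -1.72 for Chad and -1.46 for Tnmd. It was -0.13 for Dcn, 0.32 for Col3a1, 0.38 for Pdgfra and 0.40 for Scx. The summed markers moved with the samples compared below, and their part in the members' differences was not tested. In whole muscle, fewer cells of a type and less RNA per cell cannot be told apart.

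Dbp, the PAR bZIP activator whose messenger RNA is among the most strongly cycling, was lower on both SPORTS arrays by each of its 3 probes. A log2 level here is the processed signal on the log2 scale, less the 75th percentile of its array. On its brightest probe the log2 level was 6.07 and 6.17 in WT muscle, 3.85 on the sedentary and 2.73 on the exercised SPORTS array. The next probe read 5.07 and 5.05 on the WT arrays, 2.76 on the sedentary and 1.67 on the exercised array. The dimmest read 4.003 and 3.997 on the WT arrays, 1.79 on the sedentary and 0.81 on the exercised array. By all 3 probes the sedentary array lay below both WT arrays and the exercised array was the lowest. By the brightest probe both SPORTS arrays were at least 2-fold below both WT arrays, as for 1.28% of the genes tested.

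**Figure D1:**
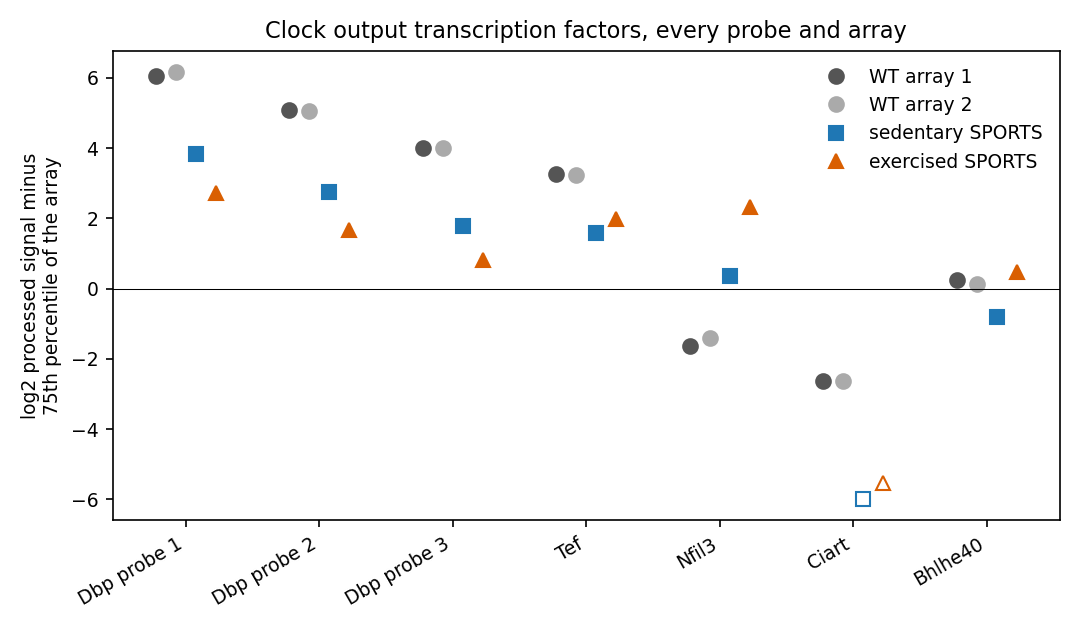
Log2 level, the processed signal relative to the 75th percentile of its array (vertical axis), for the 7 probes of the 5 measured clock output factors, with 1 point per array (circles, WT arrays 1 and 2; squares, sedentary SPORTS; triangles, exercised SPORTS; open symbols, not well above background). The 3 Dbp probes, Tef and Ciart are below both WT arrays on both SPORTS arrays, Nfil3 is above, and Bhlhe40 lies on both sides. Heights of different probes are not comparable.

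Against the WT mean, Dbp fell by 2.27 ± 0.08 on the log2 scale on the sedentary SPORTS array, or 4.83-fold (adjusted p = 0.0319, limma, standard error of the fit). It fell by 3.39 ± 0.08 on the exercised array, or 10.5-fold (adjusted p = 0.00424). Over the 3 probes the log2 difference ranged from -2.31 to -2.21 on the sedentary and from -3.39 to -3.19 on the exercised array, so the probes differed by far less than the arrays. Among the 13326 genes tested, 0.788% had a larger absolute difference on the sedentary array and 1.13% on the exercised array. The WT arrays were 0.10 apart on the brightest probe.

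Tef, the PAR bZIP relative of Dbp, was also lower on both SPORTS arrays, by less than Dbp. Its log2 level was 3.25 and 3.24 in WT muscle, 1.59 on the sedentary and 1.996 on the exercised SPORTS array. Both SPORTS arrays were at least 2-fold below both WT arrays, as for 1.28% of the genes tested, and the sedentary array was the lowest. Tef fell by 1.66 ± 0.06 on the sedentary array, or 3.16-fold (adjusted p = 0.0319, limma), and by 1.25 ± 0.06 on the exercised array, or 2.38-fold (adjusted p = 0.00511).

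Its probe was printed 10 times on each array, which gives the noise between spots of 1 hybridisation. The SD over the 10 spots on the log2 scale was 0.08 on WT array 2 and 0.05 on each of the other 3 arrays. Spots ranged from 3.04 to 3.33 over both WT arrays, from 1.51 to 1.68 on the sedentary array and from 1.89 to 2.09 on the exercised array. No spot of any SPORTS array reached the WT range, and the spots of the SPORTS arrays did not overlap with each other. Spots share 1 RNA sample, so this spread covers the array and not the animals.

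**Figure D2:**
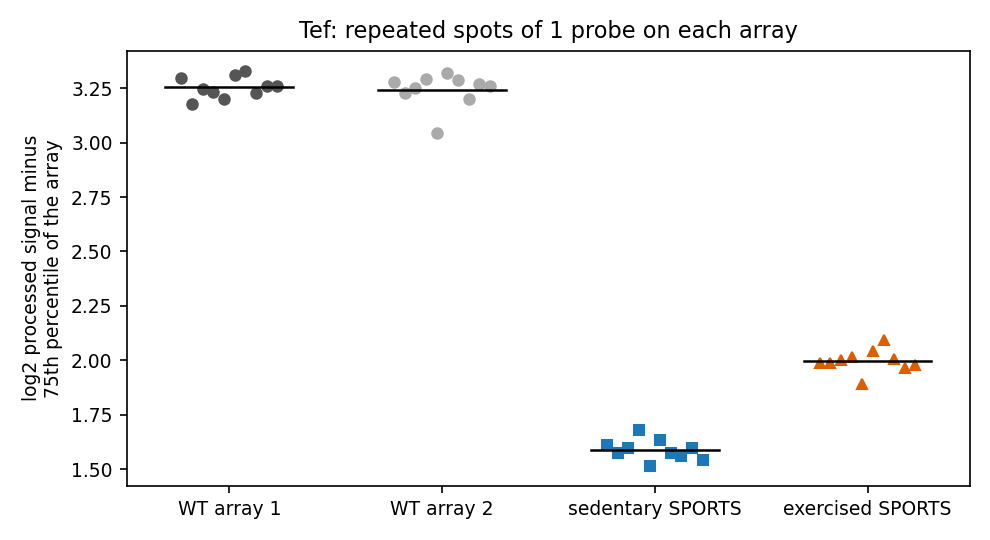
Log2 level of Tef (vertical axis) at the 10 spots of its probe on each of the 4 arrays, with the mean as a bar. WT spots lie between 3.04 and 3.33, exercised SPORTS spots between 1.89 and 2.09 and sedentary SPORTS spots between 1.51 and 1.68.

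Nfil3, the repressor that competes with the PAR bZIP factors for D-boxes, went the other way. Its log2 level was -1.64 and -1.42 in WT muscle, 0.37 on the sedentary and 2.34 on the exercised SPORTS array. Both SPORTS arrays were at least 2-fold above both WT arrays, as for 0.645% of the genes tested, and the exercised array was the highest. Nfil3 rose by 1.90 ± 0.13 on the sedentary array, or 3.73-fold (adjusted p = 0.0390, limma), and by 3.86 ± 0.13 on the exercised array, or 14.6-fold (adjusted p = 0.00441). Its difference on the exercised array ranked 26 from the top among the 13326 genes tested. The WT arrays were 0.22 apart, and 14.2% of the genes tested had a wider gap.

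The ratio of Nfil3 to Dbp within an array does not depend on the scaling between arrays. On the log2 scale it was 0.12 apart between the WT arrays, and it lay above their mean by 4.17 on the sedentary and by 7.25 on the exercised SPORTS array. The ratio of Nfil3 to Tef lay above the WT mean by 3.56 and 5.12, with the WT arrays 0.24 apart. Dbp and Tef did not move in step: the log2 ratio of Dbp to Tef differed from the WT mean by -0.61 on the sedentary and -2.13 on the exercised array, with the WT arrays 0.11 apart.

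Ciart, the repressor of the BMAL1 complex, was clearly detected in WT muscle, while on the SPORTS arrays its probe was not well above background. Its log2 level was -2.62 on both WT arrays. The measured values were -5.99 on the sedentary and -5.53 on the exercised SPORTS array, both under the lowest signal that was well above background, so no order between the SPORTS arrays can be read. Set against that lowest signal, Ciart was at least 2.25-fold lower on the sedentary array (adjusted p = 0.0315, limma on the measured values) and at least 1.76-fold lower on the exercised array (adjusted p = 0.00424). It passed the filter for testing through the WT arrays alone, so it could only be lower, and these p-values support nothing beyond the bounds.

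Bhlhe40, the E-box binding repressor also known as Dec1, lay on opposite sides of WT on the SPORTS arrays. Its log2 level was 0.24 and 0.13 in WT muscle, -0.81 on the sedentary and 0.46 on the exercised SPORTS array. Bhlhe40 fell by 0.99 ± 0.08 on the sedentary array, or 1.99-fold (adjusted p = 0.0443, limma). On the exercised array it differed from WT by 0.28 ± 0.08 (adjusted p = 0.0833), which passed with scaling by the median (0.50, adjusted p = 0.0242) and with a variance trend (adjusted p = 0.0492). Of all genes tested, 19.4% lay above both WT arrays on the exercised and below both on the sedentary SPORTS array, and 18.2% the reverse.

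**Figure D3:**
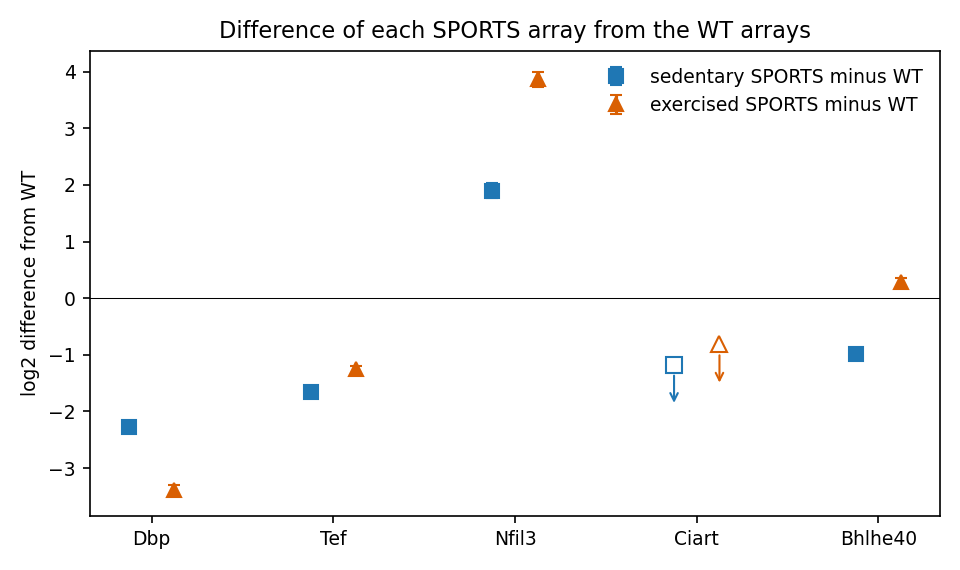
Log2 difference of the sedentary (squares) and exercised (triangles) SPORTS array from the mean of the 2 WT arrays for 5 clock output factors, with the standard error of the 3-group limma fit as bars; open symbols with arrows are bounds for Ciart, which was not well above background on either SPORTS array. Dbp is at -2.27 and -3.39, Tef at -1.66 and -1.25, Nfil3 at 1.90 and 3.86, and Bhlhe40 at -0.99 and 0.28.

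Taking the members by comparison, the 4 that were well above background on all 4 arrays, Dbp, Tef, Nfil3 and Bhlhe40, passed the adjusted threshold of 0.05 on the sedentary SPORTS array against WT. Of these 1 was higher and 3 were lower, where 6.27% of the genes tested passed (2.82% higher and 3.45% lower). Ciart brings the count to 5 of 5 on measured values. When only genes well above background on all 4 arrays were tested, the same 4 members passed, as did 2170 of 11805 genes. Without a filter on dim probes 0 of the 5 passed, with adjusted p from 0.0755 to 0.100, and over all 26624 genes then tested none passed either; at an unadjusted p under 0.05 the counts were 5 members and 5509 genes. In exercised SPORTS against WT 3 of these 4 passed, 1 higher and 2 lower, or 4 of 5 with Ciart, where 53.3% of the genes tested passed (27.3% higher and 26% lower). The median log2 difference of the 4 members was -1.33 and -0.49, and that of all genes tested -0.01 and 0.00. Both comparisons use the same WT arrays, whose pair alone gives the spread, with the lone SPORTS array assumed to vary like it.

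With both SPORTS arrays set against both WT arrays, 4 of 5 members lay at least 2-fold to one side on measured values, as did 1.92% of the genes tested. Dbp, Tef and Ciart were below (1.28% of the genes tested) and Nfil3 above (0.645%), and with dim values raised to the floor the count was 3, without Ciart. The linear model with 2 arrays a side called 0 of 5 at an adjusted p under 0.05 (limma), as for all genes (0%), and 4 of 5, Ciart among them, had an unadjusted p under 0.05, as did 7.37% of all genes. The adjusted p was 0.299 for Ciart, 0.366 for Tef, 0.429 for Dbp, 0.610 for Nfil3 and 0.827 for Bhlhe40. Leaving out the exercised array gave 5 calls and leaving out the sedentary array gave 4, which are comparisons of the remaining SPORTS array with WT. An exact permutation test of 2 against 2 cannot go below p = 0.333 (two-sided).

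Between the SPORTS arrays, which differ in exercise by their labels, Nfil3 was 3.91-fold and Bhlhe40 2.41-fold higher on the exercised array, and Dbp was 2.16-fold lower. These 3 of the 5 members were at least 2-fold apart, where 21.9% of the genes tested were, 9.11% higher and 12.8% lower on the exercised array. The other probes of Dbp were 2.12-fold and 1.97-fold lower, so the dimmest falls short of 2-fold. On the log2 scale the differences were 1.97 for Nfil3, 1.27 for Bhlhe40 and -1.11 for Dbp, which became -0.92 with scaling by the median, a setting that moved the median difference of all genes from 0.03 to 0.23. Tef differed by 0.41, and Ciart could not be compared. Each condition has 1 array, so these differences have no replicate check.

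The core loop upstream of these factors was described from a list of 14 genes, of which 10 could be tested. On the sedentary SPORTS array 2 rose and 2 fell, where 2.82% of all genes tested rose and 3.45% fell. Bmal1, the activator, rose by 3.14 ± 0.19. For its partner Npas2 the probes disagreed, both being well above background on all 4 arrays. The probe of highest mean over all arrays, which stood for the gene, rose by 2.21 ± 0.14, while the other differed by 0.25. In WT muscle the probe that rose was the dimmer, with a mean log2 level of -3.23 against -3.13. The repressor gene Per2 fell by 1.66 ± 0.13 and Per3 by 1.25 ± 0.09. The other 6 did not pass: Cry1 differed by 0.35, Clock by 0.38, Cry2 by -0.37, Bmal2 by -0.64, Nr1d2 by -0.72 and Nr1d1, which encodes the REV-ERB alpha repressor of Bmal1 and Nfil3, by -0.73. The list's median log2 difference was -0.50.

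On the exercised array 5 core loop genes rose and 3 fell by their measured values, with a median of 0.78. Of all genes tested 53.3% passed there (27.3% higher and 26% lower). With the mean of all probes of a gene, 4 core loop genes rose and 4 fell, and the list's median was 0.015. Under every other alternative that median was 0.57 or higher, so the net rise of the list depended on how probes were combined. The values below are those of the probe that stood for the gene, unless stated. Bmal1 rose by 4.15, Cry1 by 0.96, Nr1d1 by 0.61 and Per3 by 2.24. Npas2 rose by 1.81 by the probe that stood for the gene, while its other probe differed by 0.08. The probes of Per3 disagreed, with -2.05 by another probe that was well above background on the other 3 arrays, and the mean of its probes gave -0.58. Per2 fell by 1.60. Cry2 and Nr1d2 were not well above background on the exercised array and were at least 2.31-fold and at least 1.60-fold lower, the bound of Cry2 being its measured signal, which lay just above the lowest signal flagged as well above background there. Clock and Bmal2 did not pass, at 0.95 and -0.36. The log2 ratio of Bmal1 to Dbp within an array lay above the WT mean by 5.41 on the sedentary and 7.54 on the exercised array, with the WT arrays 0.45 apart.

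**Figure D4:**
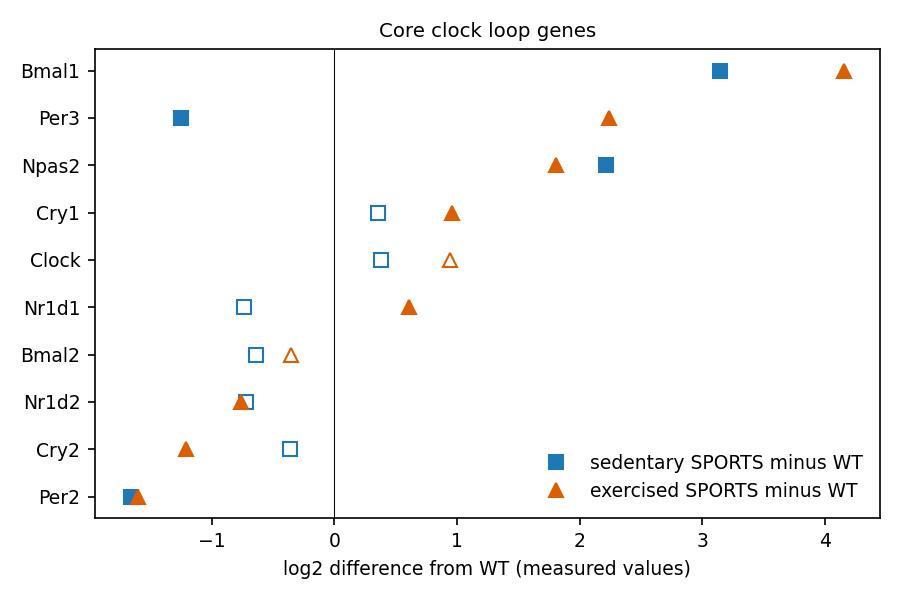
Log2 difference from the WT mean (horizontal axis) of the 10 core clock loop genes tested, on the sedentary (squares) and exercised (triangles) SPORTS array; filled symbols have an adjusted p under 0.05 (limma). Bmal1 is at 3.14 and 4.15, Per2 at -1.66 and -1.60, and Per3 lies on both sides of WT at -1.25 and 2.24. Each gene is shown by the probe that stood for it, and the other probes of Per3 were lower than WT on the exercised array.

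Of the casein kinase genes whose products phosphorylate PER proteins, Csnk1d differed from WT by -0.14 on the sedentary and -0.18 on the exercised array. Csnk1e differed by 0.31 and 0.12. Neither gene passed in either comparison.

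Known targets of the PAR bZIP factors and clock-controlled metabolic genes did not share a direction. Of 14, 12 could be tested, with 1 higher and 4 lower on the sedentary array (median -0.55), where 6.27% of all genes tested passed. On the exercised array 4 were higher and 6 lower on measured values (median -0.29), where 53.3% of all genes tested passed, and the 6 include Pdxk, which was not well above background there. Pdxk, the pyridoxal kinase gene and a known PAR bZIP target, rose by 2.71 ± 0.09 on the sedentary array on measured values, although only 1 WT array had its probe well above background. Lpl, the lipoprotein lipase gene, fell by 0.80 on the sedentary and fell by 2.91 on the exercised array. Ucp3, which encodes a mitochondrial uncoupling protein, rose by 2.32 on the exercised array, and the cell cycle kinase gene Wee1, an E-box target, fell by 2.27 there. Neither passed on the sedentary array, with Ucp3 at -0.92, on the other side of WT, and Wee1 at -0.77.

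Glucocorticoid-induced genes were listed because this hormone also sets peripheral clocks. All 12 could be tested. On the exercised array 9 rose and none fell, with a median of 0.83, where 27.3% of all genes tested rose. The glutamine synthetase gene Glul rose by 2.84, Fkbp5, which encodes a chaperone of the receptor, by 2.18 and the ubiquitin ligase gene Trim63 by 1.42. On the sedentary array none rose and Klf9 fell by 0.86, with a median of -0.19, where 3.45% of all genes tested fell.

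**Figure D5:**
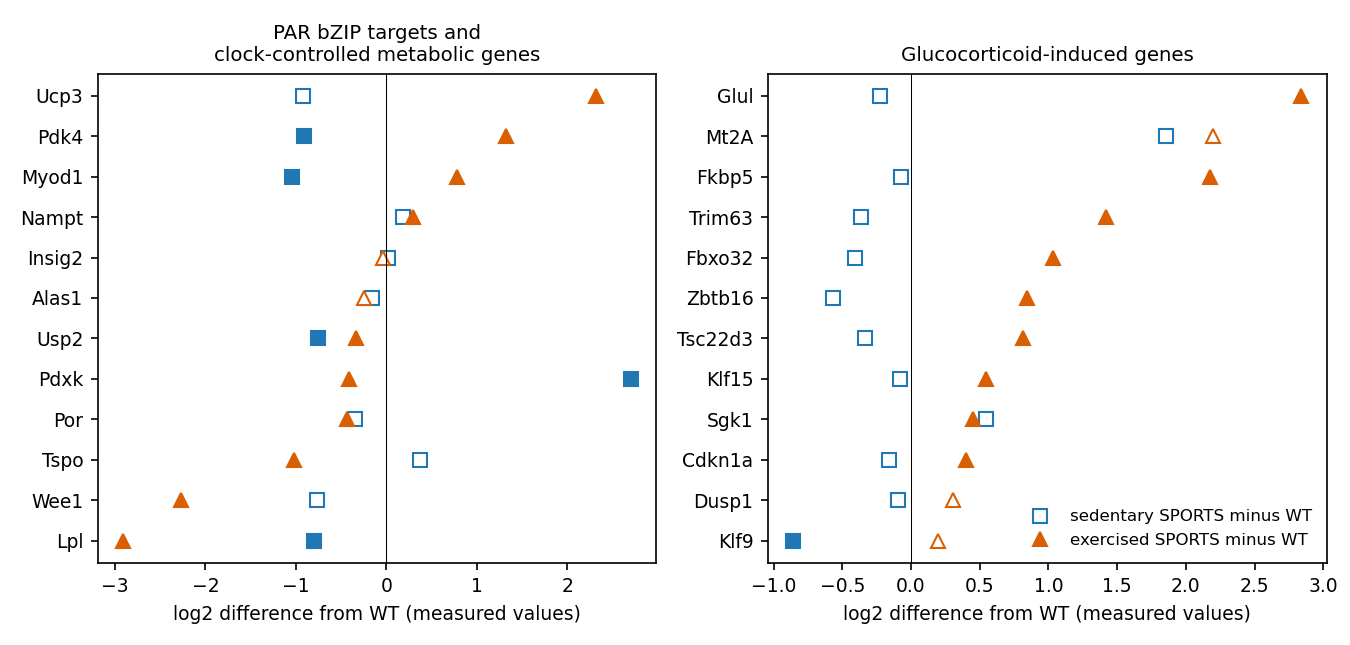
Log2 difference from the WT mean (horizontal axes) of 12 PAR bZIP target and clock-controlled metabolic genes (left) and 12 glucocorticoid-induced genes (right), on the sedentary (squares) and exercised (triangles) SPORTS array; filled symbols have an adjusted p under 0.05 (limma). On the right, 9 genes are filled above 0 on the exercised array and none on the sedentary array.

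The genes whose pattern lay closest to each member were found by Euclidean distance over the 4 log2 levels, after centring each of 8477 named genes on its WT mean. Closest to Dbp were Nefh (0.20 log2 units) and Acad9 (0.23), and closest to Tef were Cds1 (0.14) and Sh3rf2 (0.15). Bhlhe40 lay nearest to Creb3l2 (0.11) and Rab20 (0.15). Nfil3 had no near neighbour, with Vav1 at 0.52 and Ak1 at 0.65. No neighbours are given for Ciart, as its probe was not well above background on the SPORTS arrays. Nefh and Cds1 were well above background on the WT arrays alone, and Vav1 on the SPORTS arrays alone. The distances of these genes therefore rest in part on background values.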

How the data were processed

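Per the labels' protocols, RNA was labelled with Cy3 for single-colour hybridisation. Spot brightness was extracted by Agilent Feature Extraction 10.7.1.1, per the submitters' processing notes. The analysis started from the deposited intensity of each spot, its processed signal. Per the file headers it is corrected for background and spatial trend within an array and not scaled between arrays. All 4 arrays lay on 1 slide. The table of log2 values deposited by the authors is centred on the median of each probe, and its differences between arrays followed the scanner values with r = 1.

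Control spots and outlier spots were left out and spots of a probe averaged, leaving 30015 of 30367 probes. None was saturated. Signals were put on the log2 scale and the 75th percentile of each array was subtracted. Accessions were matched without version to RefSeq symbols (GRCr8), which named 59.4% of the probes used. The probe with the highest mean over all arrays, SPORTS arrays included, stood for a gene. Genes well above background on at least 2 arrays were tested. limma 3.58.1 (R 4.3.3) fitted SPORTS against WT, and 3 groups, with Benjamini-Hochberg adjustment over 13326 genes and calls under 0.05. The code was tested on simulated data. For bounds, dim values were raised to the lowest signal flagged as well above background on that array. Named were all members, all tested core loop genes, and up to 4 genes of the other lists with the largest difference from WT. One named gene is not reported here. The number of arrays limits the precision. The members and lists were chosen with earlier results of these data known.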

Additional observations from a re-analysis of the deposited data

Results flagged for a closer look

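Bhlhe40 moved in opposite directions on the SPORTS arrays. It differed from the WT mean by 0.28 on the exercised array, above both WT arrays, and by -0.99 on the sedentary array, below both. Its difference between these conditions was not tested, as each has 1 array. Of all genes tested, 19.4% showed this pattern and 18.2% its reverse.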

How the results depend on the processing

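The alternatives were normexp background correction, quantile normalization, median scaling, the authors' value table, 2 other filters on dim probes, a floor on dim values, the mean of all probes, a fit of every probe, a variance trend and leaving out each array. In sedentary SPORTS against WT, all members tested passed under each that allowed a test, except no filter on dim probes, which gave 0. In SPORTS against WT, leaving out single arrays gave 0 to 5 calls. Over all genes, calls in sedentary SPORTS against WT ranged from 0 with no filter to 2816 with a variance trend, against 836. Dbp, Tef and Nfil3 kept their direction from WT in every comparison and setting run. Ciart was also lower wherever it was tested, which adds no support, as it passed the filter through the WT arrays alone. In SPORTS against WT, Bhlhe40 ranged from -0.99 without the exercised array to 0.28 without the sedentary array, where it turned direction. Per3 turned to -0.58 on the exercised array with the mean of its probes, which disagree, and Pdxk to 0.11 there with a floor on dim values; it is not above background on that array. Over the settings that keep all arrays, core loop genes that fell numbered 0 to 4 on the sedentary and 1 to 4 on the exercised array, PAR bZIP targets and clock-controlled genes that fell 0 to 7 and 3 to 6, and glucocorticoid-induced genes that rose on the exercised array 6 to 11. Without a WT array the 3-group fit has no residual degrees of freedom, and Ciart then misses the filter. No paired analysis was possible because the labels give no pairing of arrays between the groups.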

Other observations

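Relatives of the members were also listed. Of 6 C/EBP family genes, bZIP relatives of the PAR factors, 4 could be tested. Cebpd, which encodes an inflammation- and hormone-responsive member, rose by 1.01 ± 0.07 on the sedentary array (adjusted p = 0.0390, limma) and by 2.01 on the exercised array. Ddit3, a stress-induced member, fell by 1.09 on the exercised array. Of 10 Hes and Hey genes, bHLH relatives of Bhlhe40, 4 could be tested. Hes1, which responds to Notch signalling, was at least 3.97-fold higher on the sedentary and at least 3.03-fold higher on the exercised array, being well above background on neither WT array. Hey2 was at least 2.64-fold lower on the exercised array.

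Hypoxia-induced genes were listed because Bhlhe40 is also induced by low oxygen. Of 11, 9 could be tested. On the sedentary array, where Bhlhe40 was low, none rose and 2 fell, with a median of 0.12, where 3.45% of all genes tested fell. Adm, the adrenomedullin gene, fell by 1.13. On the exercised array 1 rose and 3 fell, with a median of -0.07 (-0.19 to 0.15 under the alternatives), and 53.3% of all genes tested passed there. There Egln3, encoding an oxygen sensor, rose by 0.94, Pdk1 fell by 1.68 and Ddit4 by 1.54.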
